A study of Mus musculus with 12 samples.

Results

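RNA of 10 chemokine genes was followed in resting B (RB) cells of the spleen after different activating signals. The genes were Ccl3, Ccl4, Ccl5, Ccl6, Ccl9, Ccl17, Ccl22, Cxcl9, Cxcl10 and Cxcl16, taken as a set by name from the 50090 gene symbols of the array, with 11 probes in all, 2 of them for Cxcl16. The cells came from BALB/c mice, female and 6 weeks old by the labels, whereas the methods give both sexes, and were isolated by removal of CD43-positive cells. They were left unstimulated or stimulated for 4 h with Pam2CSK4, with anti-CD86, with both (TLR2.CD86), with anti-CD40, or with anti-CD40 and Pam2CSK4 (TLR2.CD40), and 2 arrays were hybridised for each of these 6 conditions. Pam2CSK4 is a synthetic diacylated lipopeptide recognised by TLR-2. CD86 is a costimulatory molecule on B cells, here bound by a biotinylated antibody that was cross-linked with streptavidin, and CD40 is the receptor through which helper T cells activate B cells. The study calls the arrays of a condition biological replicates, but the labels do not tie them to separate mice or cultures, so that p-values measure the spread between these arrays, which may be technical. An isotype control was not analysed here.

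Chemokines are small secreted proteins that direct the migration of leukocytes through G protein-coupled receptors. Activated B cells are known to release several of them, among them Ccl3 and Ccl4 and the Ccr4 ligands Ccl17 and Ccl22, which attract T cells. In the mouse genome the genes Ccl5, Ccl9, Ccl6, Ccl3 and Ccl4 follow one another on chromosome 11 with no other protein-coding gene between them, Ccl22 and Ccl17 lie on chromosome 8 with Cx3cl1 between them, and Cxcl9 and Cxcl10 lie on chromosome 5 with Art3 between them. Inflammatory chemokine genes are classic targets of NF-kB, which acts downstream of TLR-2 and CD40, and Cxcl9 and Cxcl10 are also known to respond to interferons.

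Levels are given as the log2 signal of the brightest probe minus the 75th percentile of the array, so that 0 is the signal of a probe at that percentile and a step of 1 is a doubling. A group mean is the mean of 2 arrays. Of the 10 genes, 8 were well above background on all 12 arrays. Ccl17 was well above background on 9 arrays and Ccl22 on none, and no spot of the 10 genes was saturated. Ccl22 could therefore not be given a level in any condition, and the tests covered the other 9 genes. A gene was called changed when the p-value of limma, adjusted over 31599 probes by the Benjamini-Hochberg method, was under 0.05. Of the 2 slides, the first carried replicate 1 of every condition and replicate 2 of unstimulated and TLR2.CD40 cells (8 arrays), and the second carried replicate 2 of the remaining conditions (4 arrays), so that each comparison was also fitted with a term for the slide, called the slide block. Between 46.6% and 60.6% of the spots of an array were well above background, and 18062 of the probes tested differed between the slides.

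**Figure D1:**
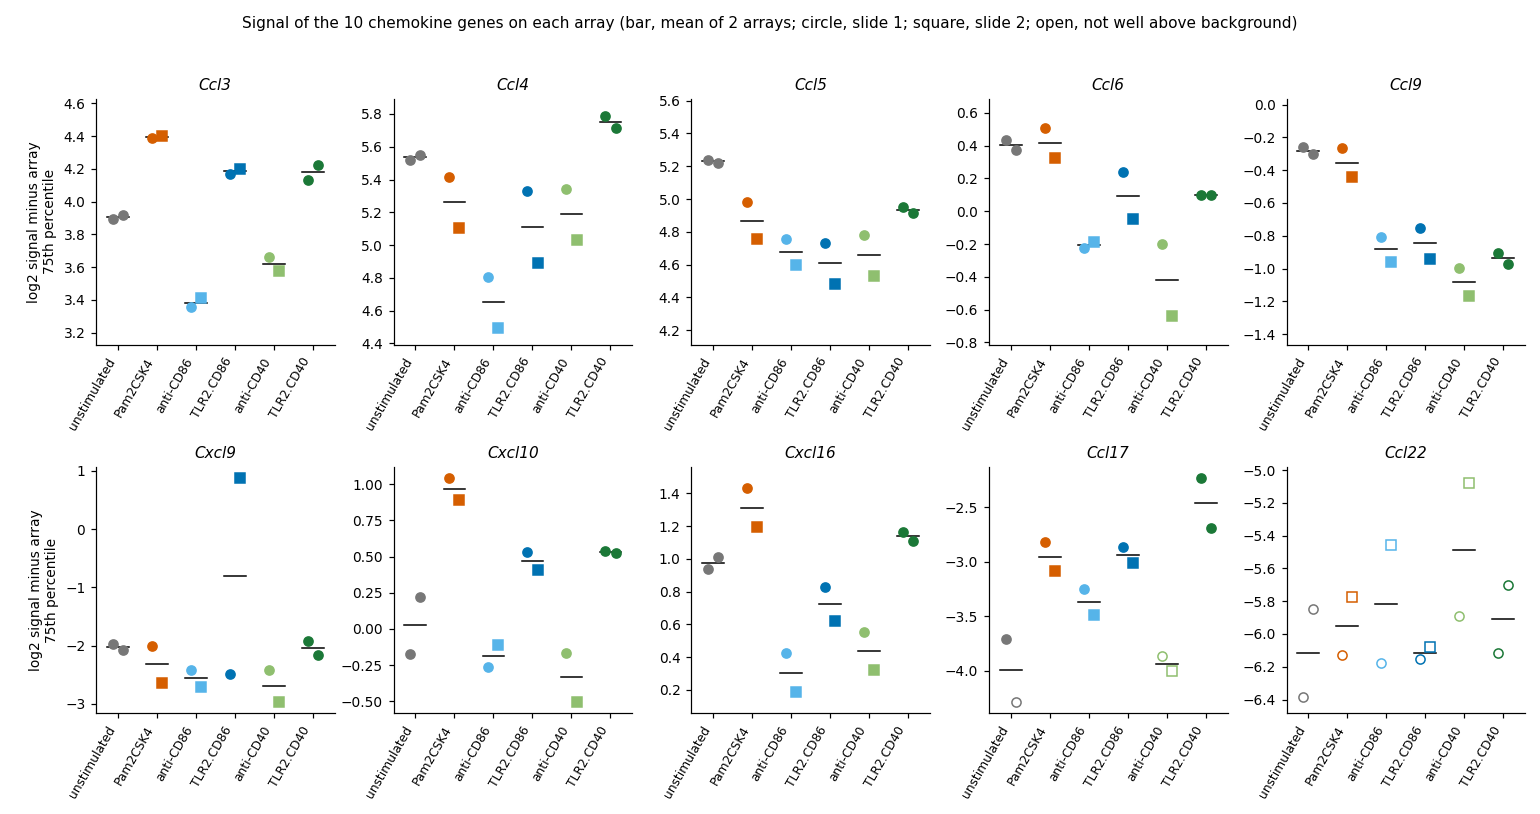
Log2 signal over the array's 75th percentile for each of the 10 chemokine genes (one panel per gene) on the 12 arrays by condition. Circles are arrays of slide 1, squares of slide 2, open symbols are spots not well above background and bars are means of 2 arrays. Ccl3 was highest on both Pam2CSK4 arrays (4.39 and 4.40) and lowest on both anti-CD86 arrays (3.36 and 3.41), 1 TLR2.CD86 array stands apart for Cxcl9 (0.87), and no spot of Ccl22 was well above background.

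Against unstimulated cells, Ccl17 rose after TLR2.CD86 and TLR2.CD40 (log2 fold changes of 1.06 and 1.53, and of 0.25 and 0.60 with normexp background correction), with 1 of the 2 unstimulated arrays not well above background. Ccl17 entered the fit only through conditions in which it was higher than in unstimulated cells. Its calls, counted below, are therefore not independent of that entry rule. Ccl9 fell after TLR2.CD86, anti-CD40 and TLR2.CD40, Ccl5 after TLR2.CD86 and anti-CD40, and Ccl6 and Cxcl16 after anti-CD40, while Ccl3 fell after anti-CD86. After Pam2CSK4 alone none of the 9 genes tested was called by limma, with 4 at an unadjusted p under 0.05, and 0.146% of all probes tested were called in that comparison. After anti-CD86, 1 of 9 was called (lower), against 2.17% of all probes. After TLR2.CD86, 3 of 9 were called (1 higher, 2 lower), against 10.8% of all probes. After anti-CD40, 4 of 9 were called, all lower, against 16.8% of all probes. After TLR2.CD40, 2 of 9 were called (1 higher, 1 lower), against 18.2% of all probes.

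The median log2 fold change of the 9 genes was 0.01 after Pam2CSK4, -0.55 after anti-CD86, -0.25 after TLR2.CD86, -0.54 after anti-CD40 and 0.16 after TLR2.CD40. Over all probes tested the medians were -0.07, -0.05, -0.03, -0.02 and 0.01. Of the 9 genes, 8 had a lower mean than unstimulated cells after anti-CD86 and 8 after anti-CD40, against 4 after Pam2CSK4. The share of all probes with a lower mean was not counted, and both unstimulated arrays lie on slide 1. More probes passed under the slide block, and the counts of these genes stood at 5 of 9 after Pam2CSK4 (11.1% of all probes), 6 of 9 after anti-CD86 (28.5%), 5 of 9 after TLR2.CD86 (35.1%), 5 of 9 after anti-CD40 (37.3%) and 7 of 9 after TLR2.CD40 (47.5%). With arrays scaled to their median, where many probes lie near background, the median of all probes moved to -0.27, -0.19, -0.32, -0.58 and -0.10 in these comparisons and no chemokine gene was called in any of them.

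**Figure D2:**
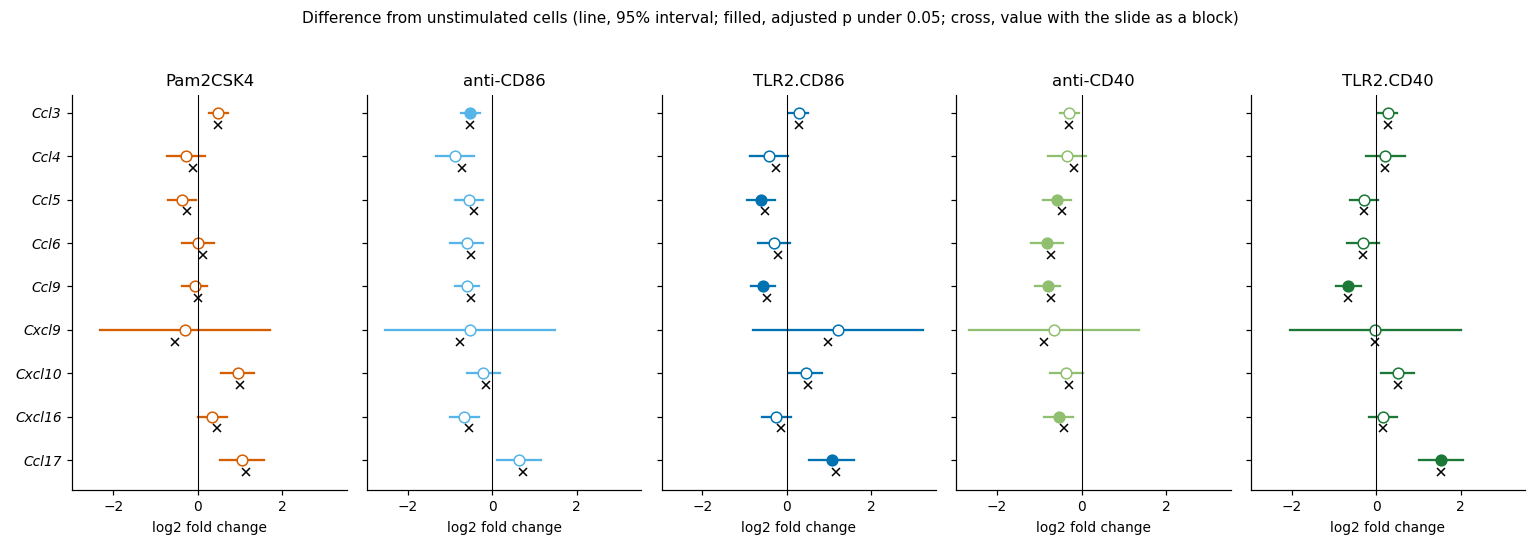
Log2 fold change against unstimulated cells (x axis) of the 9 chemokine genes tested (y axis) for each stimulus, 2 arrays per condition. Circles are estimates over all 12 arrays with 95% intervals, filled where the adjusted p was under 0.05, and crosses are the estimates under the slide block. Ccl17 has no point for anti-CD40, where it was not well above background. Filled circles lie to the left for Ccl5, Ccl6, Ccl9 and Cxcl16 after anti-CD40 and to the right for Ccl17 after TLR2.CD86 and TLR2.CD40.

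Ccl3 and Ccl4 encode macrophage inflammatory proteins, which attract monocytes and T cells. The signal of Ccl3 was 3.89 and 3.92 on the unstimulated arrays, 4.39 and 4.40 after Pam2CSK4, 3.36 and 3.41 after anti-CD86, 4.17 and 4.20 after TLR2.CD86, 3.66 and 3.58 after anti-CD40, and 4.13 and 4.22 after TLR2.CD40. The arrays of the 3 conditions with Pam2CSK4 lay above both unstimulated arrays, and those of the 2 conditions with antibody alone lay below them. Ccl3 fell after anti-CD86 (log2 fold change -0.52, SE 0.10, adjusted p = 0.0436 by limma), 1.44-fold below unstimulated cells. The higher level after Pam2CSK4 (0.49, SE 0.10) did not pass (adjusted p = 0.115) and was called under the slide block (0.48, adjusted p = 0.0114), as were the values after TLR2.CD86 (0.28, adjusted p = 0.0159), anti-CD40 (-0.29, adjusted p = 0.0123) and TLR2.CD40 (0.27, adjusted p = 0.00959). The TLR2.CD86 value stood at -0.01 with median scaling. Of the 12 fits that left out 1 array, the call after anti-CD86 held in 2, those without either anti-CD40 array, with log2 fold changes of -0.55 to -0.49 and adjusted p up to 0.281 over all 12.

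Ccl4, the next gene on the chromosome, was at 5.52 and 5.55 in unstimulated cells, 5.42 and 5.10 after Pam2CSK4, 4.80 and 4.49 after anti-CD86, 5.33 and 4.89 after TLR2.CD86, 5.34 and 5.03 after anti-CD40, and 5.79 and 5.72 after TLR2.CD40. Only the TLR2.CD40 arrays lay above both unstimulated arrays, and the anti-CD86 arrays were the lowest. No difference from unstimulated cells passed the test. The largest, after anti-CD86, was -0.89 (SE 0.20, adjusted p = 0.0601), and it was -0.71 under the slide block (adjusted p = 0.00197) and -0.73 on slide 1 alone. The slide block also gave calls after TLR2.CD86 (-0.25, adjusted p = 0.0208) and TLR2.CD40 (0.22, adjusted p = 0.0215).

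Ccl5 encodes RANTES, a chemokine that T and NK cells make in large amounts. Its signal was 5.24 and 5.22 in unstimulated cells, 4.98 and 4.76 after Pam2CSK4, 4.76 and 4.60 after anti-CD86, 4.73 and 4.48 after TLR2.CD86, 4.78 and 4.53 after anti-CD40, and 4.95 and 4.92 after TLR2.CD40. All 10 stimulated arrays lay below both unstimulated arrays. Ccl5 fell after TLR2.CD86 (-0.62, SE 0.14, adjusted p = 0.0347) and after anti-CD40 (-0.57, SE 0.14, adjusted p = 0.0334), 1.54-fold and 1.49-fold. Under the slide block these were -0.51 (adjusted p = 0.00131) and -0.46 (adjusted p = 0.0011), and the values after Pam2CSK4 (-0.25, adjusted p = 0.0329), anti-CD86 (-0.44, adjusted p = 0.00307) and TLR2.CD40 (-0.30, adjusted p = 0.00326) were called too. The TLR2.CD86 call was lost without any 1 of the unstimulated, TLR2.CD86, anti-CD86 or TLR2.CD40 arrays (-0.75 to -0.50, adjusted p up to 0.18). The anti-CD40 call was lost without any 1 of the unstimulated or TLR2.CD40 arrays or anti-CD40 replicate 2 (-0.70 to -0.45 over all 12 such fits, adjusted p up to 0.16).

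Ccl6 and Ccl9 are CC chemokines of rodents that bind Ccr1 and are mostly known from myeloid cells. Ccl9 was at -0.26 and -0.30 in unstimulated cells, -0.26 and -0.44 after Pam2CSK4, -0.81 and -0.96 after anti-CD86, -0.75 and -0.94 after TLR2.CD86, -1.0 and -1.17 after anti-CD40, and -0.90 and -0.97 after TLR2.CD40. Each of the 8 arrays with an antibody lay below the 4 arrays without one. Ccl9 fell after anti-CD40 (-0.80, SE 0.13, adjusted p = 0.00787, 1.75-fold), after TLR2.CD40 (-0.66, SE 0.13, adjusted p = 0.0103, 1.58-fold) and after TLR2.CD86 (-0.57, SE 0.13, adjusted p = 0.0323, 1.48-fold). After anti-CD86 the difference was -0.60 (adjusted p = 0.0555), and under the slide block -0.51 (adjusted p = 0.00233). The anti-CD40 call was lost without either unstimulated array (-0.78 and -0.82, adjusted p = 0.0715 and 0.0656), the TLR2.CD40 call without any 1 of the unstimulated or TLR2.CD40 arrays (-0.69 to -0.62, adjusted p up to 0.079), and the TLR2.CD86 call without any 1 of the unstimulated, TLR2.CD86, anti-CD86 or TLR2.CD40 arrays (-0.66 to -0.47, adjusted p up to 0.181).

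Ccl6 was at 0.44 and 0.38 in unstimulated cells, 0.51 and 0.33 after Pam2CSK4, -0.22 and -0.19 after anti-CD86, 0.24 and -0.05 after TLR2.CD86, -0.20 and -0.64 after anti-CD40, and 0.10 on both arrays after TLR2.CD40. The Pam2CSK4 arrays overlapped the unstimulated arrays, and all arrays with an antibody were lower than both groups. Ccl6 fell after anti-CD40 (-0.82, SE 0.17, adjusted p = 0.0172, 1.77-fold), a call lost without either unstimulated array or anti-CD40 replicate 2 (-1.04 to -0.60 over all 12 such fits, adjusted p up to 0.109). The difference after anti-CD86 (-0.61, adjusted p = 0.0891) was called under the slide block (-0.50, adjusted p = 0.0198).

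The summed signals of myeloid, NK and T cell markers were lower on the stimulated arrays, as were Ccl5 on all of them and Ccl6 and Ccl9 on those with an antibody. The cells were selected by removal of CD43-positive cells, and the B cell markers (7 of 7 genes) were well above background on all 12 arrays, among them Ms4a1 and Pax5. So were 12 of 13 myeloid markers (Fcgr1 on 7 arrays), 7 of 8 NK cell markers (Ncr1 on 9 arrays) and 8 of 9 T cell markers (Cd4 on 10 arrays). The summed linear signal of the 12 myeloid markers without a saturated spot was 244 and 245 times the 75th percentile on the unstimulated arrays, 198 to 220 after Pam2CSK4, 172 to 183 after anti-CD86, 164 to 183 after TLR2.CD86, 154 to 183 after anti-CD40 and 198 to 203 after TLR2.CD40. For the 8 NK cell markers it was 19.5 to 19.8 in unstimulated cells and 11.5 to 16.9 on the stimulated arrays, and for the 9 T cell markers 40.6 to 41.4 and 26.9 to 38.2. All 10 stimulated arrays were thus lower than both unstimulated arrays for each of these 3 lists, whereas the 6 B cell markers without a saturated spot summed to 157 in unstimulated cells and 141 to 212 after stimulation. After Pam2CSK4 these sums were lower too, while Ccl6 and Ccl9 overlapped or lay near the unstimulated arrays. A sum is led by its brightest genes. The median log2 fold change there was -0.09 for myeloid, -0.25 for NK and -0.20 for T cell markers, against -0.07 for all probes. Under the slide block it was 0.01, -0.20 and -0.04, against -0.04. After each of the other stimuli the medians of these 3 lists lay below that of all probes in both fits. After TLR2.CD86, 4 of 13 myeloid, 4 of 8 NK and 1 of 9 T cell markers fell and 1 T cell marker rose, where 10.8% of all probes were called. After anti-CD40, 2, 4 and 1 of them fell, against 16.8% of all probes, and after TLR2.CD40 4, 2 and 1, against 18.2%. Of these, 3 were picked for naming after their values were seen. Most of the myeloid markers were not called after either stimulus with anti-CD40. Under the slide block 5 myeloid markers were lower and 1 higher after TLR2.CD40 (47.5% of all probes called). The macrophage marker Emr1 was at -0.68 after anti-CD40 (adjusted p = 0.0207) and -0.77 after TLR2.CD40 (adjusted p = 0.00957), the neutrophil gene S100a8 at -0.67 (adjusted p = 0.00606) and -0.46 (adjusted p = 0.0149), and the granzyme gene Gzma at -0.64 (adjusted p = 0.00691) and -0.29 (adjusted p = 0.0728). In these bulk samples fewer cells of a type and less RNA per cell cannot be told apart, and the part of other cells in the chemokine levels was not tested.

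**Figure D3:**
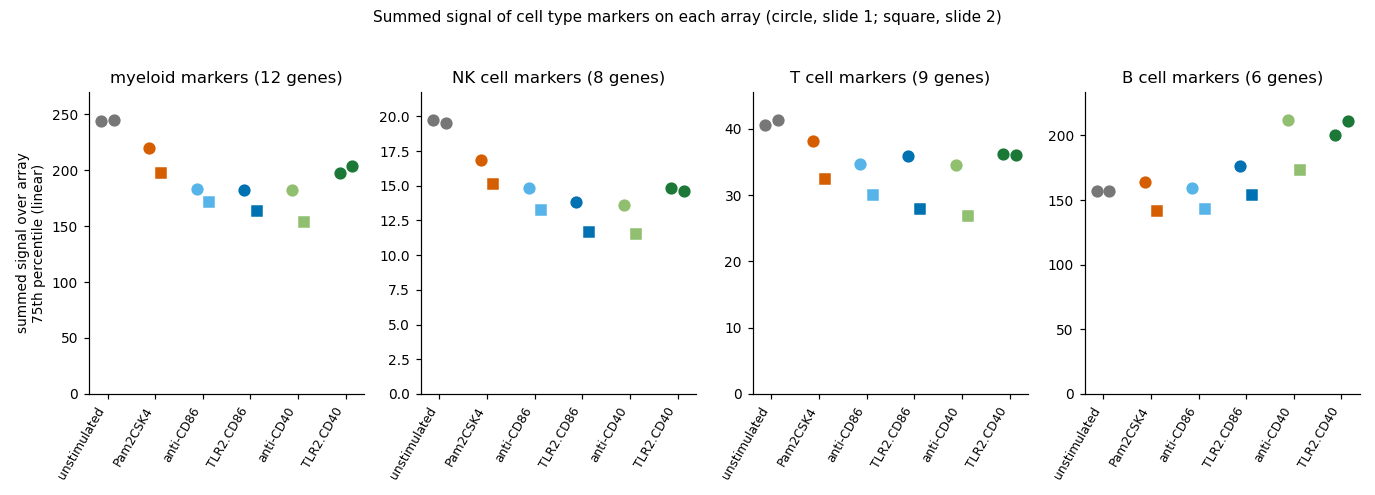
Summed linear signal, over the array's 75th percentile, of markers of myeloid, NK, T and B cells on each of the 12 arrays by condition (genes with a saturated spot left out). Circles are arrays of slide 1 and squares of slide 2. The unstimulated arrays are the highest for myeloid (244 and 245), NK (19.8 and 19.5) and T cell markers (40.6 and 41.4), and not for B cell markers.

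Cxcl9 and Cxcl10 are ligands of Cxcr3, the receptor of effector T and NK cells. Cxcl10 was at -0.18 and 0.22 in unstimulated cells, 1.04 and 0.89 after Pam2CSK4, -0.27 and -0.11 after anti-CD86, 0.53 and 0.40 after TLR2.CD86, -0.17 and -0.50 after anti-CD40, and 0.54 and 0.52 after TLR2.CD40. All 6 arrays with Pam2CSK4 lay above the 6 arrays without it. No difference from unstimulated cells passed the test. It was 0.94 after Pam2CSK4 (SE 0.17, adjusted p = 0.0928, 1.92-fold) and 0.51 after TLR2.CD40 (adjusted p = 0.0763), and both were called under the slide block (1.00, adjusted p = 0.0186, and 0.51, adjusted p = 0.0323). After TLR2.CD86 it was 0.44 (adjusted p = 0.123), and 0.50 with the block (adjusted p = 0.0533).

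Cxcl9 lay between -2.96 and -1.92 on 11 arrays, and 1 array, TLR2.CD86 replicate 2, stood at 0.87, against -2.49 on TLR2.CD86 replicate 1. The mean of TLR2.CD86 was 1.22 above unstimulated cells (SE 0.87, adjusted p = 0.378) with both arrays and -0.47 (SE 0.32, adjusted p = 0.482) without replicate 2. Without replicate 1 it was 2.90 (adjusted p = 0.0232). The 2 arrays thus point in opposite directions, and no level of Cxcl9 after TLR2.CD86 can be given from their mean. That array also sets the spread of Cxcl9 in all comparisons of the 12 arrays, and with it left out no difference of Cxcl9 from unstimulated cells passed the test either, the largest being -0.66 after anti-CD40 (SE 0.26, adjusted p = 0.125).

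Cxcl16 is a transmembrane chemokine and the ligand of Cxcr6. Its brighter probe was at 0.94 and 1.01 in unstimulated cells, 1.43 and 1.19 after Pam2CSK4, 0.42 and 0.19 after anti-CD86, 0.83 and 0.62 after TLR2.CD86, 0.56 and 0.32 after anti-CD40, and 1.17 and 1.11 after TLR2.CD40. The arrays with antibody alone were the lowest 4 of the 12. Cxcl16 fell after anti-CD40 (-0.54, SE 0.15, adjusted p = 0.044, 1.45-fold), and the difference after anti-CD86 (-0.67, adjusted p = 0.0598) was called under the slide block (-0.55, adjusted p = 0.00216). The values after Pam2CSK4 (0.34, adjusted p = 0.318) and TLR2.CD40 (0.16, adjusted p = 0.504) were called with the block too (0.45, adjusted p = 0.00951, and 0.16, adjusted p = 0.038). The dimmer probe gave no call, with -0.36 after anti-CD40 (adjusted p = 0.268) and -0.12 after anti-CD86 (adjusted p = 0.778). The anti-CD40 call of the brighter probe held in 3 of the 12 fits without 1 array, those without anti-CD40 replicate 1 or either TLR2.CD86 array (-0.65 to -0.42 over all 12, adjusted p up to 0.208).

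Ccl17 and Ccl22 encode the ligands of Ccr4, a receptor of activated and regulatory T cells. Ccl17 was at -3.71 in 1 unstimulated array and not well above background in the other (-4.29), at -2.82 and -3.09 after Pam2CSK4, -3.25 and -3.49 after anti-CD86, -2.86 and -3.02 after TLR2.CD86, and -2.23 and -2.69 after TLR2.CD40, and was not well above background on either anti-CD40 array (-3.86 and -4.01). The 6 arrays with Pam2CSK4 lay above the other 6. Ccl17 entered the fit only through conditions in which it was higher than in unstimulated cells. The p-values of Ccl17 are therefore not independent of that entry rule. With no filter on dim probes the TLR2.CD40 call was kept. Ccl17 rose after TLR2.CD40 (1.53, SE 0.23, adjusted p = 0.00378), a call kept in all 12 fits without 1 array (1.24 to 1.82) and lost with median scaling (1.42, adjusted p = 0.168) and quantile normalization (1.37, adjusted p = 0.122). With normexp background correction it was 0.60 and still called (adjusted p = 0.00761). Ccl17 also rose after TLR2.CD86 (1.06, SE 0.23, adjusted p = 0.0297), a call lost without any 1 of the unstimulated or TLR2.CD86 arrays (0.77 to 1.35, adjusted p up to 0.177). It was also lost with normexp background correction (0.25, adjusted p = 0.187), median scaling (0.77, adjusted p = 0.558), quantile normalization (0.75, adjusted p = 0.403), no filter on dim probes (1.06, adjusted p = 0.126) and slide 1 only (1.13, adjusted p = 0.105). After Pam2CSK4 alone the value was as large (1.04) and did not pass (adjusted p = 0.127), and under the slide block it was 1.14 (adjusted p = 0.0286). Ccl22 lay between -6.38 and -5.08 on the 12 arrays, with no spot well above background.

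The conditions also allow a comparison of cells given an antibody with and without Pam2CSK4. Adding Pam2CSK4 raised Ccl3 with either antibody. Against anti-CD86 the difference was 0.80 (SE 0.10, adjusted p = 0.0226, 1.74-fold), with 0.81 on slide 1 and 0.79 on slide 2, and against anti-CD40 it was 0.56 (SE 0.10, adjusted p = 0.0239, 1.47-fold). Cxcl10 rose with Pam2CSK4 over anti-CD40 (0.87, SE 0.17, adjusted p = 0.0369, 1.82-fold). Ccl17 was at least 2.26-fold higher in TLR2.CD40 than in anti-CD40, a bound because neither anti-CD40 array measured it. The bound is for the main processing alone. The fit, which used the anti-CD40 values at background, gave 1.47 for Ccl17 (adjusted p = 0.0157 by limma), and the alternatives gave 0.64 to 2.15. Its p-value, too, is not independent of the entry rule. Against anti-CD86, Cxcl10 was 0.66 higher in TLR2.CD86 and did not pass (adjusted p = 0.299, and 0.0515 under the slide block).

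In all, 1 of 9 genes was called for TLR2.CD86 against anti-CD86, where 0.225% of all probes were called, and 3 of 9, all higher, for TLR2.CD40 against anti-CD40, where 2.91% were. The counts under the slide block were 3 of 9 (7.74% of all probes) and 5 of 9 (15.2%), with Ccl4 and Cxcl16 called in both, at 0.46 and 0.42 over anti-CD86 and 0.39 and 0.58 over anti-CD40. The mean was higher with Pam2CSK4 in 8 of 9 genes over anti-CD86, in 9 of 9 over anti-CD40 and in 5 of 9 without an antibody. For these directions, too, the share of all probes was not counted. Cxcl9 counts among the 8 only through the TLR2.CD86 array that stands apart, and its difference from anti-CD86 was -0.08 on slide 1. The median log2 fold change was 0.43 over anti-CD86 and 0.57 over anti-CD40, against -0.01 and 0.05 for all probes. The Ccl3 call over anti-CD86 held in 2 of 12 fits without 1 array, those without either anti-CD40 array (0.77 to 0.83 over all 12, adjusted p up to 0.194). The Ccl3 call over anti-CD40 was lost without any 1 of the TLR2.CD40, unstimulated or anti-CD86 arrays or anti-CD40 replicate 2 (0.51 to 0.60, adjusted p up to 0.2). The Cxcl10 call held in 3 fits, without either unstimulated array or anti-CD40 replicate 1 (0.70 to 1.04 over all 12, adjusted p up to 0.204), and the Ccl17 call was lost without TLR2.CD40 replicate 1 (adjusted p = 0.113) or anti-CD40 replicate 2 (adjusted p = 0.082), and with quantile normalization, no filter on dim probes and slide 1 only (adjusted p up to 0.132).

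**Figure D4:**
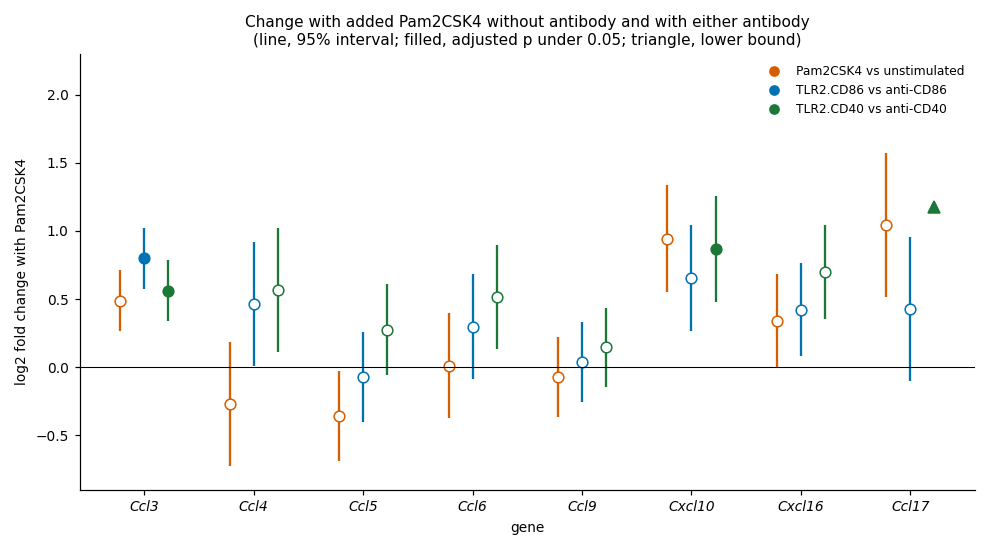
Log2 fold change on addition of Pam2CSK4 (y axis) for 8 chemokine genes (x axis) without antibody, with anti-CD86 and with anti-CD40, 2 arrays per condition, with 95% intervals. Filled circles had an adjusted p under 0.05, and the triangle is the lower bound for Ccl17 over anti-CD40. Ccl3, Cxcl10, Cxcl16 and Ccl17 lie above 0 in each setting and Ccl9 near 0, and Cxcl9 is left out because its 2 TLR2.CD86 arrays disagree.

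Set against Pam2CSK4 alone, Ccl9 fell with anti-CD40 added. The difference was -0.58 for TLR2.CD40 (SE 0.13, adjusted p = 0.026, 1.5-fold), lost without any 1 of the unstimulated, Pam2CSK4 or TLR2.CD40 arrays (-0.67 to -0.49, adjusted p up to 0.166), and -0.49 for TLR2.CD86 (adjusted p = 0.24), where it was -0.48 on slide 1 and -0.50 on slide 2 and called under the slide block (adjusted p = 0.00831). Thus 1 of 9 genes was called for TLR2.CD40 against Pam2CSK4 (9.97% of all probes) and none by limma for TLR2.CD86 against Pam2CSK4 (0.0633% of all probes, 3 of 9 genes at an unadjusted p under 0.05). Under the slide block 5 of 9 and 3 of 9 were called (31.5% and 11% of all probes), and Cxcl16 was lower in TLR2.CD86 than in Pam2CSK4 (-0.59, adjusted p = 0.00659). No gene of the set was called by limma between TLR2.CD40 and TLR2.CD86 (12.3% of all probes, 2 of 9 genes at an unadjusted p under 0.05). With the block 4 of 9 were called (34.6%), of which Ccl4 differed most, 0.47 higher in TLR2.CD40 (adjusted p = 0.00196).

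Whether both signals together gave more or less than the sum of their log2 effects was tested as an interaction. No gene of the set passed by limma for Pam2CSK4 with anti-CD86 (0.019% of all probes called, 1 of 9 genes at an unadjusted p under 0.05) or with anti-CD40 (1.16%, 2 of 9). Ccl4 stood above the sum in both, by 0.73 with anti-CD86 (SE 0.28, adjusted p = 0.969) and by 0.84 with anti-CD40 (SE 0.28, adjusted p = 0.189). Ccl5 stood above the sum with anti-CD40, by 0.64 (SE 0.20, adjusted p = 0.177). Under the slide block no gene was called for anti-CD86 (0.234% of all probes), where Ccl4 gave 0.56 (adjusted p = 0.0769), and 2 of 9 for anti-CD40 (8.59%), Ccl4 at 0.49 (adjusted p = 0.0281) and Ccl5 at 0.42 (adjusted p = 0.0279).

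The stretch before the transcription start is shown for Ccl3, Cxcl10, Ccl17 and Ccl9. The first 3 were each higher on all arrays with Pam2CSK4 than on those without it, though none was called after Pam2CSK4 alone. Ccl9 was lower on all arrays with an antibody, as was Ccl6, which is not shown. The share of all probes that separate the arrays in these ways was not counted, so these patterns only describe the genes named. Entries were found for 7 of the 10 genes in a RefSeq promoter table of build GRCm38.p6. The 250 bases upstream of the start were searched on both strands for the kappaB motif, the site of NF-kB, for the interferon-stimulated response element in its core TTTCNNTTTC, and for the gamma-activated site TTCNNNGAA, the site of STAT factors. Of 32851 promoters of this length, 7.25% held a kappaB match, 2.98% the response element and 7.02% the gamma-activated site. Capitals mark the matches in the sequences, which run 5′ to 3′ toward the start.
Cxcl10, chr5:92348890-92349139, minus strand: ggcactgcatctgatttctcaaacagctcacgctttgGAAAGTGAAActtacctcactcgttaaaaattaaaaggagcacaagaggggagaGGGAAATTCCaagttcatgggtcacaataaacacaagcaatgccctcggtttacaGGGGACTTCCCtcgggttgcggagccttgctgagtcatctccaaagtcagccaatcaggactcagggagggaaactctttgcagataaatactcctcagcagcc
Ccl17, chr8:94810203-94810452, plus strand: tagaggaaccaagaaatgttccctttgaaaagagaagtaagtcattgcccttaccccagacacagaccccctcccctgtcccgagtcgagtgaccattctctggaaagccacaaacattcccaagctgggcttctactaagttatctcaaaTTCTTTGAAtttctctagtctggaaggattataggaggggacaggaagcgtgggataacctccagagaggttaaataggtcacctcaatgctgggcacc
Ccl9, chr11:83578637-83578886, minus strand: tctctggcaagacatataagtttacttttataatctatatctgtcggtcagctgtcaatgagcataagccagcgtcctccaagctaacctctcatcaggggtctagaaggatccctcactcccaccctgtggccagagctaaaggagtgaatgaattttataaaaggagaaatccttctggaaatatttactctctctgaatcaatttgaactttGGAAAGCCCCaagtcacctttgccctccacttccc
Ccl3, chr11:83649379-83649628, minus strand: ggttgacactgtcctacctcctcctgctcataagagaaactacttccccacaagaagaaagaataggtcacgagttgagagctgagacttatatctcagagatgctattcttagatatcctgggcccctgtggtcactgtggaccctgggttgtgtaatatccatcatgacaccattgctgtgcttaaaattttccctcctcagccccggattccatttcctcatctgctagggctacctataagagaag
The Cxcl10 window held kappaB matches that begin 159, 104 and 103 bases upstream of the start, the last 2 overlapping, and 1 response element that begins 213 bases upstream. Ccl17 held 1 gamma-activated site at 99 bases, and Ccl9 held 1 kappaB match at 35 bases. None of the 3 motifs was found in the windows of Ccl3, Ccl6, Cxcl9 and Ccl22. A match is a description of letters, and the arrays do not show which of these sites was bound.

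Chemokine genes outside the set gave a frame for these values. Of 28 other chemokine genes on the array, 11 were tested, and 2 rose after Pam2CSK4, none was called after anti-CD86, 3 rose and 2 fell after TLR2.CD86, and 2 rose and 2 fell after anti-CD40 and after TLR2.CD40. The shares of all probes called in these comparisons were 0.146%, 2.17%, 10.8%, 16.8% and 18.2%. With the slide block 3 were higher and 1 lower after Pam2CSK4, 4 lower after anti-CD86, 3 higher and 4 lower after TLR2.CD86, and 2 higher and 5 lower after anti-CD40 and after TLR2.CD40. The shares of all probes called with the block were 11.1%, 28.5%, 35.1%, 37.3% and 47.5%. Cxcl1, a neutrophil chemokine, was at -2.55 and -2.35 in unstimulated cells, -0.26 and -0.30 after Pam2CSK4, -0.69 on both arrays after TLR2.CD86 and -0.21 and -0.41 after TLR2.CD40. It rose by 2.17 after Pam2CSK4 (SE 0.24, adjusted p = 0.0306), 1.76 after TLR2.CD86 (adjusted p = 0.0105) and 2.14 after TLR2.CD40 (adjusted p = 0.00126). Cx3cl1, the membrane-bound chemokine fractalkine, whose gene lies between Ccl22 and Ccl17, rose by 1.60 (SE 0.19, adjusted p = 0.0341), 1.57 (adjusted p = 0.00846) and 1.89 (adjusted p = 0.000695) in the same conditions, and by 0.74 after anti-CD40 (adjusted p = 0.033). Cxcl2 rose by 0.74 after TLR2.CD86 (SE 0.19, adjusted p = 0.0438).

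Other chemokine genes fell. Pf4, the platelet chemokine, changed by -0.99 after TLR2.CD86 (SE 0.14, adjusted p = 0.0113), -1.03 after anti-CD40 (adjusted p = 0.00504) and -0.69 after TLR2.CD40 (adjusted p = 0.0135). Of 4 platelet markers, 2 fell after TLR2.CD86 (10.8% of all probes called) and none was called by limma after the other stimuli. Under the slide block 1 was lower after anti-CD40 (37.3% of all probes) and 1 after TLR2.CD40 (47.5%). Their part in the Pf4 values was not tested. Xcl1, lymphotactin, made by T and NK cells, changed by -0.78 after TLR2.CD86 (adjusted p = 0.0392) and -1.02 after anti-CD40 (adjusted p = 0.0128), and Ccl25 by -0.72 after TLR2.CD40 (adjusted p = 0.0208). Ccl7, a monocyte chemokine, was well above background on both anti-CD40 arrays (-2.00 and -3.13), one on each slide, and on none of the other 10, where it lay between -6.54 and -5.69. It was at least 2.33-fold higher after anti-CD40 than in unstimulated cells and at least 2.08-fold higher than in TLR2.CD40. Ccl7 entered the fit only through the anti-CD40 arrays on which it was high, so no p-value is given for it, although it is among the genes counted as higher after anti-CD40.

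**Figure D5:**
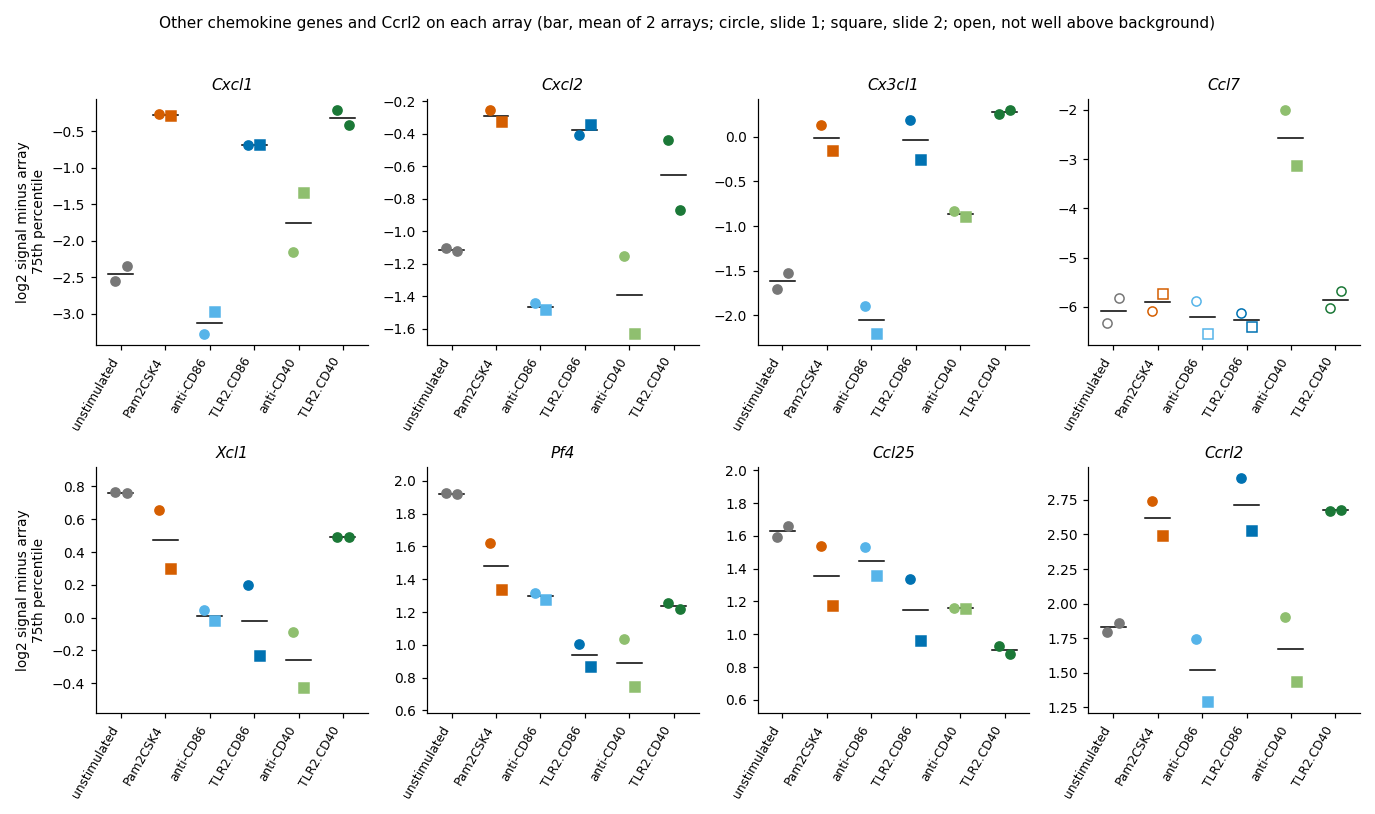
Log2 signal over the array's 75th percentile for the chemokine genes outside the set that were called against unstimulated cells, and for Ccrl2, on the 12 arrays by condition. Circles are slide 1, squares slide 2, open symbols not well above background and bars means of 2 arrays. Cxcl1, Cxcl2, Cx3cl1 and Ccrl2 are higher on the 6 arrays with Pam2CSK4 than on the other 6, and Ccl7 is above background on the anti-CD40 arrays alone (-2.00 and -3.13).

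Receptors of the set were followed too. Ccr1, the receptor of Ccl6 and Ccl9, was not well above background on any array. Cxcr3, the receptor of Cxcl9 and Cxcl10, and Cxcr6, the receptor of Cxcl16, were well above background on all 12 arrays and are named here after their values were seen. Cxcr3 stood at -0.65 after TLR2.CD86 (SE 0.18, adjusted p = 0.0549), and under the slide block it was called (-0.51, adjusted p = 0.00715). Cxcr6 stood at -0.49 after TLR2.CD86 (SE 0.15, adjusted p = 0.072), and under the slide block it was called too (-0.37, adjusted p = 0.00529). Of 10 other chemokine receptor genes tested, 1 rose and 2 fell after TLR2.CD86, 3 rose and 1 fell after anti-CD40, and 4 rose and 2 fell after TLR2.CD40, against 10.8%, 16.8% and 18.2% of all probes. The slide block gave 4 higher and 2 lower after Pam2CSK4, 2 and 2 after anti-CD86, 3 and 4 after TLR2.CD86, 3 and 3 after anti-CD40, and 4 and 5 after TLR2.CD40. With the block 11.1%, 28.5%, 35.1%, 37.3% and 47.5% of all probes were called in these comparisons. Cxcr5, which leads B cells into follicles, rose by 1.09 after anti-CD40 (SE 0.16, adjusted p = 0.00634) and 1.49 after TLR2.CD40 (adjusted p = 0.000959), and Ccr7, which leads them to the T cell zone, was called higher in both but had a saturated spot on 4 arrays, so that no size is given. Cxcr7, a scavenger of Cxcl12, rose by 0.61 (adjusted p = 0.0178) and 0.64 (adjusted p = 0.0106), and Ccr6 changed by -0.89 (adjusted p = 0.0172) and -0.67 (adjusted p = 0.0374). Ccrl2, a receptor that binds chemerin, rose by 0.89 after TLR2.CD86 (SE 0.22, adjusted p = 0.0419) and 0.85 after TLR2.CD40 (adjusted p = 0.0318). Cxcr4 changed by -0.55 (adjusted p = 0.0339) and -0.57 (adjusted p = 0.0179) in these conditions, and the decoy receptor gene Ccbp2 by -0.74 after TLR2.CD86 (adjusted p = 0.0319).

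Of 13 NF-kB feedback and target genes, 2 rose after Pam2CSK4, 1 after anti-CD86, 4 after TLR2.CD86, 11 after anti-CD40 and 10 after TLR2.CD40, and none was called lower. The slide block gave 9, 3, 8, 12 and 13 higher, and 2 lower after anti-CD86. The shares of all probes called in these comparisons were 0.146%, 2.17%, 10.8%, 16.8% and 18.2%. Under the slide block they were 11.1%, 28.5%, 35.1%, 37.3% and 47.5%. Icam1, an adhesion molecule, rose by 1.49 after Pam2CSK4 (adjusted p = 0.00482), 0.72 after anti-CD86 (adjusted p = 0.0314), 1.85 after TLR2.CD86 (adjusted p = 0.00108), 2.70 after anti-CD40 (adjusted p = 6.63e-05) and 2.84 after TLR2.CD40 (adjusted p = 6.6e-06). The I-kappa-B genes Nfkbiz and Nfkbid rose by 2.41 and 2.27 after TLR2.CD40 (adjusted p = 6.05e-05 and 0.000939). After anti-CD40, where 11 of these 13 genes rose, no gene of the chemokine set was called higher. Ccl17 and Ccl22 lay at background there, and Cx3cl1 and Ccl7, outside the set, were higher. Ccl7 entered the fit only through the anti-CD40 arrays, so that its call is not independent of that entry rule. A link between these lists was not tested. Of 16 interferon-induced genes tested, none was called by limma after Pam2CSK4, anti-CD86 or TLR2.CD86, 4 fell after anti-CD40, and 2 rose and 3 fell after TLR2.CD40. With the slide block 2 were higher and 1 lower after Pam2CSK4, 1 and 5 after anti-CD86, 3 and 4 after TLR2.CD86, 3 and 6 after anti-CD40, and 4 and 6 after TLR2.CD40. The shares of all probes given above for the NF-kB genes apply to these counts too. Mx1, an antiviral GTPase gene well above background on 3 arrays, was at -1.80 after TLR2.CD86 (SE 0.76, adjusted p = 0.155). The 2 that rose were Irf1 (0.75, adjusted p = 0.0113) and Usp18 (0.74, adjusted p = 0.0142).

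For the 5 genes of the set that were well above background on every array and called against unstimulated cells, the most similar patterns were sought among 20589 other genes of the array, as the lowest root mean square difference of the 5 log2 fold changes against unstimulated cells. For Ccl9 they were Fgl2 (0.04) and Sgms2 (0.07), for Ccl5 Mrpl20 (0.03) and H2afz (0.03), for Ccl6 Ift74 (0.03) and LOC634416 (0.07), and for Cxcl16 Nupr1 (0.11) and Cd14 (0.13), the last a receptor gene of myeloid cells. For Ccl3 they were a noncoding RNA probe (0.12) and Asprv1 (0.12). The points are 5 comparisons that share the unstimulated arrays. They come from the fit without the slide block, so differences between the slides can be part of a match.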

How the data were processed

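RNA of RB cells was labelled with Cy3 by the authors, hybridised to a custom mouse array annotated to mm9 and extracted with Agilent Feature Extraction 10.5.1.1. The deposited scanner files hold a processed signal intensity per spot, corrected for background within each array by that software. A second deposited table gives the authors' log2 values for these arrays, equal to the log2 intensity minus a constant per array close to its 75th percentile.

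Here each array's log2 intensities were centred on its 75th percentile. Control spots and outlier spots were left out, saturated spots were kept, and spots of a probe were averaged. A probe entered when 1 condition or more had both its spots well above background (31667 of 61307 probes), and 68 probes with a missing value were dropped, which left 31599. They were fitted by limma 3.58.1 (R 4.3.3), the 12 arrays together and a mean for each condition, with Benjamini-Hochberg adjustment. The number of arrays, 2 per condition, limits the precision. The 10 genes, the gene lists and the rules for named genes were chosen with earlier results of these data known. All 10 genes, called genes of the receptor and chemokine lists, at most 3 genes of the NF-kB and interferon lists, and the 2 genes of most like pattern per gene were named. A condition with no array well above background was given a bound, set by the lowest signal well above background on each array. Alternatives were median scaling, quantile normalization, normexp with an offset of 50, the authors' table, other filters, the slide or the replicate number as a block, slide 1 only, the methods' one-way test and leaving out each array. The fit was tested on simulated data. All 10 accessions matched a RefSeq table of GRCm38.p6, used for names and gene order, which came with promoter sequences. Figures were drawn with matplotlib 3.10.9, and tables made with pandas 2.3.3 in Python 3.11.15. Some genes of the receptor and marker lists are not reported here.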

Additional observations from a re-analysis of the deposited data

How the results depend on the processing

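The 12 comparisons are named in the order of Pam2CSK4, anti-CD86, TLR2.CD86, anti-CD40 and TLR2.CD40 against unstimulated cells, TLR2.CD86 against Pam2CSK4 and against anti-CD86, TLR2.CD40 against Pam2CSK4, against anti-CD40 and against TLR2.CD86, and the interactions with anti-CD86 and with anti-CD40. The genes called were 0, 1, 3, 4, 2, 0, 1, 1, 3, 0, 0 and 0 of 9. Under the slide block they were 5, 6, 5, 5, 7, 3, 3, 5, 5, 4, 0 and 2, with median scaling 0 in all but TLR2.CD40 against anti-CD40 (1), and with no filter on dim probes 0, 0, 0, 1, 1, 0, 0, 0, 0, 0, 0 and 0, where more probes were adjusted over. On slide 1 only they were 0, 0, 2, 4, 5, 0, 0, 2, 0, 1, 0 and 0. Counts that moved by over 1.5 times in the other alternatives were, against unstimulated cells, for anti-CD86 6 with normexp, 4 over probes well above background on all arrays, 3 with quantile normalization and 2 with the methods' one-way test, for Pam2CSK4 1 with the one-way test, and for TLR2.CD40 1 with quantile normalization and 1 over probes well above background on all arrays. They were 0 with normexp, 0 with quantile normalization and 2 with the one-way test for TLR2.CD40 against Pam2CSK4, and 1 with normexp for TLR2.CD40 against TLR2.CD86. Over probes well above background on all arrays, 8 genes were tested. Ccl17 was not among them, so its calls drop out of these counts, and the 12 called values of the other genes were all kept. The authors' table kept every count.

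The replicate number as a block gave 1, 7, 3, 5, 2, 0, 1, 3, 4, 3, 0 and 0. The numbers do not pair all arrays, since deviations of same-numbered arrays correlated from -0.11 to 0.67 and were near 0 for both conditions that lie on slide 1 alone. Leaving out 1 array gave 0 to 0, 0 to 2, 0 to 3, 0 to 4, 1 to 2, 0 to 1, 0 to 1, 0 to 1, 0 to 5, 0 to 1, 0 to 0 and 0 to 0 called genes. Of the 15 called values of single genes, 12 were lost without either unstimulated array, 11 and 10 without TLR2.CD40 replicates 1 and 2, 7 without either anti-CD86 array, 6 without either TLR2.CD86 array or anti-CD40 replicate 2, 5 without either Pam2CSK4 array and 0 without anti-CD40 replicate 1. All 15 were kept under the slide block, the replicate block and the authors' table, 14 with the one-way test, 13 with normexp, 9 on slide 1 only, 8 with quantile normalization, 2 with no filter and 1 with median scaling. No called value changed its sign. Among the other values printed, Ccl3 after TLR2.CD86 was -0.00786 with median scaling, Cxcl9 after TLR2.CD86 was -0.47 on slide 1 only and from -0.47 to 2.90 with 1 array left out, and Ccl9 in TLR2.CD40 against TLR2.CD86 was 0.085 with median scaling and from -0.19 to 0.0037 with 1 array left out. Except for fewer arrays, more probes or the loss of Ccl17 from the genes tested, the cause of these changes was not tested. Ccl22 and, after anti-CD40, Ccl17 lay at background, where no level can be given.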
